A study of Mus musculus with 2 samples.

Results

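Interferon gamma, the receptor that binds it, the receptor for type I interferons and the Janus kinases that both receptors use were followed through mouse spleen cells. The 8 genes, Ifng, Ifnar1, Ifnar2, Ifngr1, Ifngr2, Jak1, Jak2 and Tyk2, were taken by their symbols from the 32285 genes of the deposited feature lists, where each symbol had 1 row in both libraries. The cells were CD45+ leukocytes sorted from spleens of wild-type mice (strain, age and sex were not used here) that had received 10000 iRBCs into the peritoneal cavity, an abbreviation the labels do not spell out. The mice of the first group were given Vehicle and those of the second Glutoborin, a compound the labels name without describing it, on day 2 and day 4 of infection, and spleens were taken on day 5. Both groups were infected, so no uninfected reference was measured. Each group was 1 droplet library of 3' gene expression, and how many mice a library pools was not stated by the submitters. Intervals below are therefore exact 95% intervals of the molecule counts alone, the spread between animals was not measured, and no test between the groups could be made. The comparison of the groups asks how the ligand, the receptors and the kinases differed after Glutoborin, and the comparison of cell types asks which cells held each of them.

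The Vehicle library had 8204 barcodes and 48526451 UMIs (unique molecular identifiers, 1 per captured RNA molecule), and the Glutoborin library had 9646 barcodes and 56862506 UMIs. Barcodes with at least 10% mitochondrial UMIs made up 18.5% of the Vehicle library and 4.07% of the other, and were left out. After doublet removal 6492 Vehicle cells (median 5688 UMIs) and 8901 Glutoborin cells (median 4811) were kept. The libraries shared 24 barcode sequences. Clusters were named from marker genes, and a type's name here means cells that look like it by those markers. Defining markers of B, T, NK, myeloid and dendritic cells were present, as a CD45+ spleen sort should give. All 9 NK markers, among them Ncr1, Klre1 and Gzma, were measured in the NK cells, with summed levels of 21049 and 20802 CPM (UMIs per 1000000 of the group's own UMIs) in Vehicle and Glutoborin. Gzma alone made 11954 and 11487 CPM of these sums, and single markers differed between the libraries, as given below. Cluster 8, B-lineage cells led by Il4i1, Egr3 and Cd83, stayed unnamed, and so did cluster T12, T cells led by Cxcr6, Ckb, Rora and Tcrg-C2. The mixed dendritic cluster was named from type 2 and mature markers. Type 1 dendritic cells formed a separate cluster of 18 Vehicle and 33 Glutoborin cells, too few in Vehicle for the levels below. Different clusters held most of the B cells in each library: cluster 2 had 798 Vehicle and 216 Glutoborin cells, whereas cluster 0 had 546 and 1108, cluster 4 had 435 and 1012, and cluster 5 had 249 and 880. Likewise CD4 T cluster T7 had 140 and 390 cells and CD8 T cluster T2 had 167 and 382. Among the leading genes of B cell cluster 2 were Serpina3f, Serpina3g, Ifit3, Socs1 and Irgm1, of which Socs1 and Irgm1 are on the interferon gamma target list. The part of this cluster in the B cell ratios below was not tested. The 8 genes were kept out of the clustering. So were the lists of interferon ligands, other receptor chains and kinases, STAT factors, negative regulators and interferon gamma targets. The lists of Ifng inducers, their receptors, transcription regulators and effector partners were not left out as lists. Genes on them, such as Cxcr6 and Cxcr3, could therefore shape the groups.

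Interferon gamma is the type II interferon, a cytokine that NK cells and activated T cells secrete and that arms macrophages and raises antigen presentation. It binds IFNGR1, which carries the Janus kinase JAK1, and the complex needs IFNGR2, which brings JAK2. Together they phosphorylate transcription factors of the STAT family. Type I interferons bind IFNAR1, the chain that carries TYK2, and IFNAR2, the chain that carries JAK1, and signal through STAT proteins with IRF9. In an infected spleen the cytokine is known for helping phagocytes control the infection and for its part in tissue damage.

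In the GENCODE annotation of GRCm38 (also called mm10), Ifng lay on the plus strand at chr10:118441046-118445892 and Ifngr1 at chr10:19591949-19610229. Both type I chains and Ifngr2 stood side by side on chromosome 16, within a stretch of 192841 bases. Ifnar2 was at chr16:91372783-91405589, Ifnar1 at chr16:91485238-91507441 and Ifngr2 at chr16:91547072-91565623, all on the plus strand, with Il10rb, a chain shared by the interleukin 10 and type III interferon receptors, between the first pair. Jak1 was on the minus strand at chr4:101152367-101265282, Jak2 on the plus strand at chr19:29251828-29313080 and Tyk2 on the minus strand at chr9:21104068-21131243. Gm49751 overlaps Ifng on the same strand, Gm21970 overlaps Ifnar2 and Gm12785 overlaps Jak1, and none of these overlapping models has a row in the feature lists. Raver2, on the opposite strand to Jak1, had 65 and 61 UMIs in the kept cells, against 13349 and 16435 for Jak1.

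NK cells, as described below, were among the highest groups for the ligand and the lowest for the second chain of its receptor. The promoters of these genes are shown for that reason. Each is the 250 bases before the RefSeq start on GRCm38.p6, plus strand, at chr10:118440796-118441045 for Ifng and chr16:91546809-91547058 for Ifngr2. Capitals mark matches, on either strand, to the 6 motifs searched.
Ifng: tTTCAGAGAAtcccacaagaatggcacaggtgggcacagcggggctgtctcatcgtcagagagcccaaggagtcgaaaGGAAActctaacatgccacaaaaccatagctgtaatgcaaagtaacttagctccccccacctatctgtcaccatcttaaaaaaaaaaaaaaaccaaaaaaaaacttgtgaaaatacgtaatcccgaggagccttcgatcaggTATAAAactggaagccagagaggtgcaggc
Ifngr2: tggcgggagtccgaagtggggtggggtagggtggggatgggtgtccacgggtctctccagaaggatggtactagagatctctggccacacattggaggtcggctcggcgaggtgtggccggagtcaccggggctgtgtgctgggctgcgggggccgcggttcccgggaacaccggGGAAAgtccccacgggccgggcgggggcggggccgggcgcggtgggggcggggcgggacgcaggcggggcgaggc
The motifs were the gamma-activated site (TTCNNNGAA), the core of the interferon-stimulated response element (GAAA, 2 free bases, and GAAA again), the TATA box (TATAAA), the T-box core (GGTGTGA), the NFAT core (GGAAA) and the AP-1 site (TGANTCA). Of 32851 promoters of this length, 7.02%, 2.98%, 12.4%, 3.33%, 55.6% and 6.75% held them, in that order. The Ifng window held a gamma-activated site from 249 to 241 bases before the start, an NFAT core from 172 to 168 and a TATA box from 30 to 25, and the matches do not overlap. The Ifngr2 window held 1 NFAT core, from 75 to 71 bases before the start. The windows also differed in base composition, with 6 CpG dinucleotides and 45.2% G+C for Ifng and 25 and 74% for Ifngr2. The median over all promoters was 6 CpG and 52.4% G+C. Ifnar2 held 1 gamma-activated site, from 214 to 206 bases before its start, and Ifngr1 and Jak1 held none of the 6 motifs. A match is a stretch of letters, not a measured site, and nothing was measured at these windows.

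Ifng was held mostly by NK cells. Of the 1352 Ifng UMIs of the Vehicle library, 812 (60.1%, interval 57.4 to 62.7%) were in its 254 NK cells, and of the 981 in the Glutoborin library 527 (53.7%, 50.5 to 56.9%) were in its 353 NK cells. NK cells were 3.91% and 3.97% of the kept cells. Cluster T12 held 10.7% and 17.6% of the Ifng UMIs, gamma-delta T cells 10.1% and 7.75%, T cells of no finer class 9.62% and 8.56%, and CD8 T cells 4.73% and 5.91%. These 5 groups together held 95.3% of the Ifng UMIs in 19.9% of the Vehicle cells, and 93.6% in 19.2% of the Glutoborin cells.

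Per molecule captured, the order of the leading groups was not the same in both libraries. In Vehicle, NK cells stood first at 328 CPM (306 to 352), above gamma-delta T cells at 180 CPM (151 to 212) and cluster T12 at 179 CPM (151 to 210), which did not differ from each other beyond counting error. In Glutoborin, cluster T12 stood first at 241 CPM (206 to 279), above NK cells at 187 CPM (172 to 204), and gamma-delta T cells followed at 89.6 CPM (70.6 to 112). T cells of no finer class were at 50.9 and 52.6 CPM. In Vehicle most of their UMIs were in cycling cluster T15 (107 of 130, at 79.3 CPM), where 1 cell alone held 40. In Glutoborin T15 held 52 of 84 UMIs at 60.7 CPM, close to cluster T11 at 59.4 CPM. CD8 T cells were far lower, at 11.6 and 7.76 CPM. Their Ifng was concentrated in cluster T10, led by Gzmm, Ctla2a and Cxcr3. It held 54 of their 64 UMIs in Vehicle and 56 of 58 in Glutoborin.

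Other cells held little. CD4 T cells had 14 and 12 Ifng UMIs, regulatory T cells 3 and 11, and monocytes 7 and 2. Neutrophils had 1 and 7, the latter all in 1 cell. Plasmacytoid dendritic cells had 0 of 22 and 0 of 25 cells with a UMI, which allows shares of up to 13.6% and 12%. Cluster 8 had 1 UMI in Vehicle and none in 452 Glutoborin cells, a share of up to 0.66%. B cells, which are not known as a source of this cytokine and serve as the background here, had 31 and 19 UMIs in 3176 and 4699 cells, never more than 1 in a cell. That is 1.85 CPM (1.26 to 2.62) and 0.85 CPM (0.51 to 1.33). The CD4 T cell levels of 2.92 CPM (1.60 to 4.90) and 2.15 CPM (1.11 to 3.75) and the monocyte levels of 2.15 and 0.84 CPM had intervals that overlapped this background. Within the CD4 T cells, cluster T1, led by Izumo1r and Maf, held 7 of the 14 and 11 of the 12 UMIs. Its levels of 10.8 CPM (4.35 to 22.3) and 12.9 CPM (6.46 to 23.1) lay above the B cell intervals in both libraries. In Glutoborin alone, regulatory T cells at 13.6 CPM (6.77 to 24.3), red pulp macrophages at 15.8 CPM (5.79 to 34.3) and neutrophils at 25.7 CPM lay above it as well, on UMIs from 5, 3 and 1 cells.

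**Figure D1:**
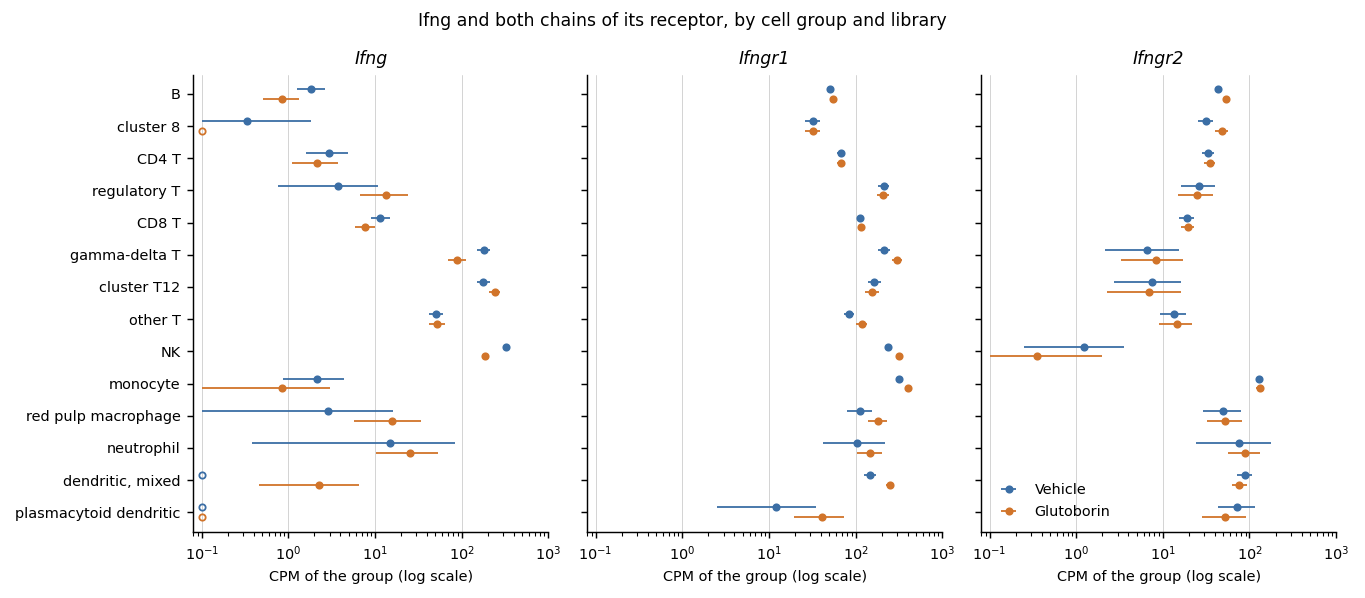
CPM of Ifng, Ifngr1 and Ifngr2 (log axis) in the 14 cell groups with at least 20 cells in each library, Vehicle in blue and Glutoborin in orange. Bars are exact 95% counting intervals, their lower ends drawn no lower than 0.1 CPM, and open circles at 0.1 are groups with no UMI. NK cells are among the highest for Ifng and Ifngr1 and the lowest for Ifngr2 in both libraries.

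Shares of cells with Ifng were also highest in NK cells and cluster T12. An Ifng UMI was found in 167 of 254 Vehicle NK cells (65.7%, median depth 8809 UMIs) and 180 of 353 Glutoborin NK cells (51.0%, median depth 6694), and in 56.6% and 59.6% of cluster T12. With every cell thinned to 2000 UMIs, and 5 shallower Vehicle NK cells left out, the shares were 35.7% (29.8 to 42.0%) and 29.2% (24.5 to 34.2%) in NK cells, so their intervals overlapped. Cluster T12 gave 28.9% and 30.8%, gamma-delta T cells 11.3% and 12.1%, and CD8 T cells 1.85% and 0.89%. The background share in B cells was 0.98% and 0.40% before thinning, at median depths of 4607.5 and 4008 UMIs, and 0.51% and 0.19% after it. Richness per cell differed between the libraries too: 20 Vehicle and 4 Glutoborin NK cells held 10 or more Ifng UMIs, and the median NK cell with any held 3 and 2. The highest single NK cells held 41 UMIs in Vehicle and 56 in Glutoborin.

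**Figure D2:**
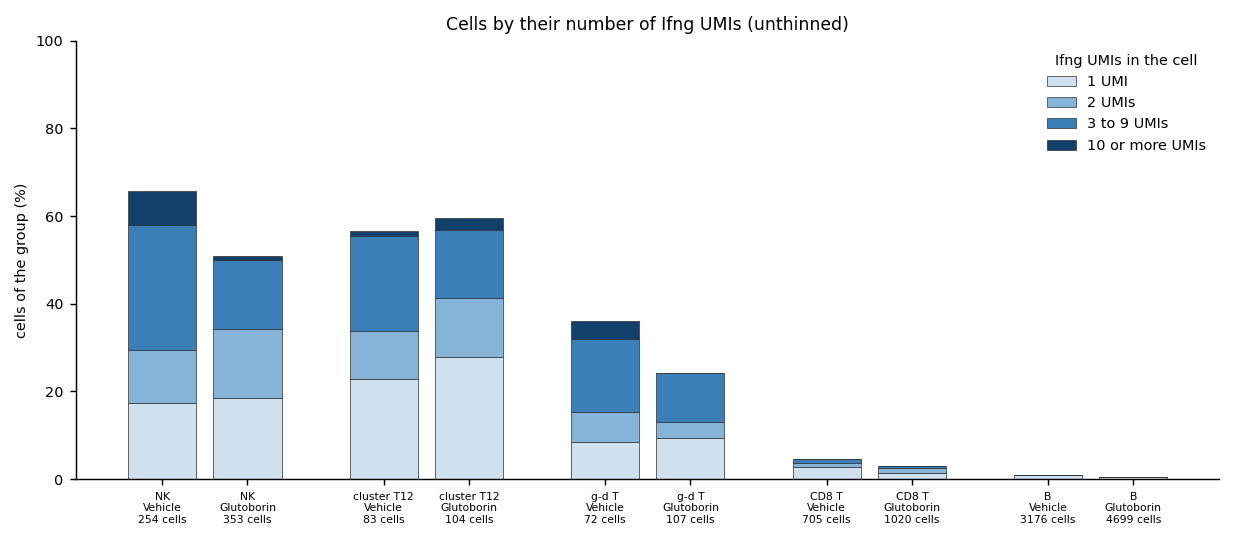
Percent of cells (bars from 0) holding 1, 2, 3 to 9, or 10 and more Ifng UMIs, before thinning, for 5 groups in each library (g-d T, gamma-delta T). The darkest segment is 20 of 254 Vehicle and 4 of 353 Glutoborin NK cells, and B cells held no more than 1 UMI.

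Summed over every kept cell, Ifng stood at 30.6 CPM in Vehicle (29.0 to 32.3) and at 18.7 CPM (17.6 to 19.9) after Glutoborin, which is a log2 ratio of -0.71 (-0.83 to -0.59). A gene counted as measured when both libraries together gave 50 or more UMIs. Of 12620 such genes, 3.07% were at least 1.5-fold lower in Glutoborin and 3.42% at least 1.5-fold higher. Ifng was the 1 member of the 8 past that fold over all cells. As a mean over cells of each cell's CPM its log2 ratio was -0.54, short of 1.5-fold. In these summed counts, fewer cells of a type and less RNA per cell cannot be told apart. The NK share of kept cells was close in both libraries, and within NK cells the log2 ratio was -0.81 (-0.97 to -0.65). It was -0.77 (-0.94 to -0.60) in the larger NK cluster 9 and -0.37 (-0.94 to 0.22) in cluster 25, which cell cycle genes such as Mki67 lead. Without the 10 NK cells richest in Ifng in each library it was -0.76 (-0.95 to -0.57). With cells of up to 25% mitochondrial UMIs kept, it was -0.63. Of the 9 NK markers in these cells, Klra8 (481 and 750 CPM, log2 0.64) was at least 1.5-fold higher and 0 were lower. The shares of all genes measured there were 6.89% and 5.47%. Klrd1 (0.39), Eomes (0.33) and Klrb1c (0.21) were higher by less, and Prf1 (-0.29) and Ncr1 (-0.16) were lower. Klre1 (0.02), Nkg7 (-0.07) and Gzma (-0.06) were close to even. The part of this makeup in the NK value was not tested.

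Gamma-delta T cells, with 72 and 107 cells below the 100 set for a comparison, had 137 and 76 Ifng UMIs, and the whole interval of their log2 ratio (-1.43 to -0.59) lay below 0. A single Vehicle cell held 43 of the 137. The markers of their makeup differed too, in both directions. Summed gamma-delta markers were higher, at 1162 and 1687 CPM, and summed NK markers lower, at 2649 and 2263 CPM, with Gzma at 259 and 55.4 CPM. Trac, the constant gene of the T cell receptor alpha chain, was at 356 and 438 CPM, beside 590 and 569 in CD8 T cells. Trdc, that of the delta chain, was at 227 and 492 CPM. Whether these cells include alpha-beta T cells was not tested. The part of this makeup in their Ifng value was not tested. Cluster T12, also small at 83 and 104 cells, went the other way for Ifng, at 0.43 (0.10 to 0.76). Its summed NKT-like markers (Zbtb16, Klrb1c, Il2rb, Cd3e, Cxcr6 and Trac) were 2941 and 3447 CPM, and its summed NK markers were 1582 and 1655 CPM, with Eomes and Klra8 at 0 in both libraries. Of these markers Klrb1c, an NK receptor gene, was higher (56.7 and 117 CPM, log2 1.04) and Klrd1 was at 0.50 (0.13 to 0.86). Summed gamma-delta markers were close, at 1109 and 1113 CPM, but Tcrg-C1 (-0.59) and Tcrg-C4 (-0.61) were lower. The part of this makeup in the T12 values, Jak2 below included, was not tested. CD8 T cells were at -0.58 (-1.11 to -0.04). In cluster T10, which held most of their Ifng, the ratio was -0.52 (-1.09 to 0.05), an interval that included no change. T cells of no finer class were at 0.05 (-0.37 to 0.46). In B cells the ratio was -1.12 (-2.02 to -0.25). Of 13 effector partners measured in B cells, 4 were at least 1.5-fold lower (Ccl4 at -1.53, Gzmb at -1.30, Xcl1 at -1.07 and Cd69 at -0.88) and 1 was higher (Il2 at 1.19), beside 3.38% and 2.38% of all genes measured there. Others did not go down with Ifng, with Ccl5 at 0.32 (0.16 to 0.47), Prf1 at -0.12 and Ccl3 at -0.18. Gzma was at 19.6 and 15.4 CPM in these B cells, Ncr1 at 2.09 and 1.35 CPM and Klre1 at 1.79 and 1.88 CPM. The remaining transcripts of other lineages were all lower in Glutoborin. Lyz2 was at 105 and 37.2 CPM, Jchain at 32.7 and 8.79, S100a8 at 26.2 and 10.6 and S100a9 at 27.1 and 14.9. Cd3e was at 10.4 and 5.74 CPM, Trac at 9.89 and 7.13, Hbb-bs at 2.80 and 0.09 and Hba-a1 at 1.55 and 0.40. The part of RNA from other cells in the B cell value was not tested.

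Within NK cells, the 347 cells with an Ifng UMI (167 Vehicle, 180 Glutoborin) were set against the 260 without (87 and 173). By the lower bound of the ratio over both libraries, the 5 leading genes were Xcl1, Cxcl10, Lilrb4a, Lilr4b and Ckb. Since the libraries differed in level and in share of cells with Ifng, values are given within each, Vehicle first. Xcl1, the chemokine that attracts type 1 dendritic cells, was higher in cells with Ifng at 1.09 (0.93 to 1.25) and 0.82 (0.68 to 0.97), and Cxcl10, an interferon-induced chemokine, at 1.97 and 2.99. Lilrb4a (1.75 and 1.02) and Lilr4b (1.12 and 1.76) were higher in both, whereas Ckb was at 0.32 (-1.10 to 1.96) in Vehicle and 3.38 in Glutoborin. Of the fixed effector list, Ccl3 (0.70 and 0.87) was higher in both, and Ccl4 differed in size (0.24 and 1.00). Csf2 (0.96 in each) and Cd69 (1.17 and 0.39) were higher in Vehicle, while their Glutoborin intervals included no change. The cytotoxic genes Gzma (-0.10 and 0.01) and Prf1 (-0.20 and 0.08) were not higher in Vehicle and were close to even in Glutoborin, and Ccl5 was lower in both (-0.24 and -0.22). Jak1 was slightly lower in cells with Ifng (-0.16 and -0.19), and Ifngr1 was at -0.12 (-0.37 to 0.14) and -0.25 (-0.44 to -0.06). Those cells were also deeper, with median depths of 9247 against 8154 UMIs in Vehicle and 6990.5 against 6400 in Glutoborin.

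Xcl1 was also among the leading genes of Ifng cells in cluster T12 (1.14 and 0.65) and in gamma-delta T cells (2.61 and 1.78). Gzmb led in cluster T12 (1.92 over both libraries), but that rested on Vehicle cells, with 2.12 there and -0.07 in Glutoborin. The 63 CD8 T cells with Ifng were led by Gzmm, Ccl4, Ccl5, S100a6 and Klrc1, and Ccl5 was at 3699 CPM in them and 490 CPM in the other 1662. The 20 CD4 T cells with Ifng were led by S100a6, Lgals3, Ahnak, Ikzf2 and Lgals1. In the CD8 T cells with Ifng, Ifngr1 was higher (0.52 and 1.03). Ifngr2 was lower over both libraries (-1.68, -3.57 to -0.31), at 6.15 against 19.8 CPM, but the interval within each library included no change.

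Across the 22 points given by 11 cell groups in each library, the genes most like Ifng were Xcl1 (Pearson r = 0.98), Il18rap (0.97), Klrc1 (0.96), Arl4d (0.96) and Cd160 (0.95), of 10372 ranked on log2(CPM + 10). Il18rap is a chain of the interleukin 18 receptor, and Klrc1 and Cd160 are receptors of NK and cytotoxic T cells. The points of a library share its depth and its free RNA, so these values describe the pattern and carry no test.

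Ifngr1, the ligand-binding chain, was carried by every group, from 12.1 CPM in Vehicle plasmacytoid dendritic cells and 31.9 CPM in Glutoborin cluster 8 up to monocytes at 321 CPM (302 to 341) and 405 CPM (380 to 431). NK cells came second at 236 CPM (217 to 256) and 320 CPM (300 to 342), below monocytes beyond counting error in both libraries. NK cells did not differ beyond counting error from the group after them, regulatory T cells at 212 CPM in Vehicle and gamma-delta T cells at 303 CPM in Glutoborin. Regulatory T cells stood apart from other CD4 T cells, at 212 and 208 CPM against 68.2 and 67.7. CD8 T cells were at 113 and 116 CPM and B cells at 51.1 and 54.3.

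Ifngr2, the chain that brings JAK2, had nearly the reverse order among lymphocytes. Monocytes again stood first, at 130 CPM (118 to 143) and 132 CPM (118 to 148), although in Glutoborin the next group, neutrophils, did not differ from them beyond counting error. The mixed dendritic cells had 88.0 and 76.5 CPM, neutrophils 75.0 and 88.0, B cells 42.9 and 53.6, and CD4 T cells 33.2 and 34.6. CD8 T cells had 18.8 and 19.3 CPM, gamma-delta T cells 6.55 and 8.26, and cluster T12 7.40 and 6.95. NK cells were last, with 3 UMIs in Vehicle (1.21 CPM, 0.25 to 3.55) and 1 in Glutoborin (0.36 CPM, 0.01 to 1.98), below the next lowest group beyond counting error in both. After thinning, 0 of 249 and 0 of 353 NK cells held an Ifngr2 UMI, which allows shares of up to 1.20% and 0.85%. NK cells, which stood first for Ifng in Vehicle and second in Glutoborin, thus had the lowest Ifngr2 level in both libraries, while cluster T12, first for Ifng in Glutoborin, had a low level that was still above theirs. Inside CD8 T cells, cluster T10, which held most of their Ifng, had 4.80 and 1.93 CPM of Ifngr2, against 18.8 and 19.3 in CD8 T cells as a whole, T10 included. These T10 levels rested on few UMIs, from 92 and 147 cells.

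The balance of both chains put this on 1 scale. UMIs of a 3' library count molecules and are not scaled by transcript length, although genes may still differ in how well their ends are captured. Ifngr1 molecules per Ifngr2 molecule were 1.19 and 1.01 in B cells, 2.06 and 1.96 in CD4 T cells, and 2.47 and 3.06 in monocytes. They were 6.01 and 5.99 in CD8 T cells, 8.19 and 8.45 in regulatory T cells, 22.3 and 22.2 in cluster T12, and 32.4 and 36.7 in gamma-delta T cells. The cluster T12 values (10.0 to 61.9 and 9.23 to 69.7) rested on 6 and 5 Ifngr2 UMIs. Those of gamma-delta T cells (13.6 to 101 and 17.6 to 92.2) rested on 5 and 7, and the intervals of these groups overlapped. In NK cells the ratios were 195 (66.3 to 947) and 902 (161 to 35666), with the upper bounds set by 3 and 1 Ifngr2 UMIs. Plasmacytoid dendritic cells alone among the 14 groups had fewer Ifngr1 than Ifngr2 molecules in both libraries by point value, at 0.17 and 0.77, on 3 against 18 and 10 against 13 UMIs. Thinned monocytes held UMIs of both chains in 11.5% and 12.6% of cells, and NK cells in none, within the limits given above for Ifngr2. The NK values were 58.8 in Vehicle with cells of up to 25% mitochondrial UMIs kept, and 83.4 in Glutoborin with doublets kept. Each was above the main point value of every other group. However, 58.8 lay inside the main Vehicle intervals of gamma-delta T cells and cluster T12. Likewise 83.4 lay inside the main Glutoborin interval of gamma-delta T cells.

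Between the libraries, Ifngr1 was higher after Glutoborin in the mixed dendritic cells, with 176 UMIs (148 CPM, 127 to 171) in Vehicle and 336 UMIs (250 CPM, 224 to 278) after treatment. The log2 ratio was 0.76 (0.49 to 1.03). Summed type 2 dendritic markers there were 687 and 852 CPM, mature markers 1173 and 1199, and type 1 markers 660 and 545. Summed monocyte markers there were 1513 and 1639 CPM, with Csf1r (0.83), Cx3cr1 (0.94) and Ear2 (1.59) at least 1.5-fold higher and Ace (-1.40) lower among the 8 measured. The part of this makeup was not tested. The ratio was 0.44 (0.29 to 0.59) in NK cells and 0.33 (0.21 to 0.46) in monocytes, both short of 1.5-fold. The NK value was 0.65, past that fold, with cells of up to 25% mitochondrial UMIs kept. In B, cluster 8, CD4, CD8 and regulatory T cells the Ifngr1 intervals included no change. Ifngr2 was higher in cluster 8, with 95 UMIs (31.3 CPM) and 143 UMIs (48.1 CPM), a log2 ratio of 0.62 (0.23 to 1.01). It was also higher, by less, in B cells at 0.32 (0.19 to 0.46). In monocytes it was at 0.03 (-0.19 to 0.24).

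Genes most like Ifngr1 over the 22 points were Cd48 (r = 0.91), Gpx4 and Dhrs7, and those most like Ifngr2 were Ctss (0.95), which encodes the antigen-processing protease cathepsin S, Cd2ap and Scand1.

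For the type I receptor, both chains were highest in plasmacytoid dendritic cells, the specialised producers of type I interferon. They had 238 and 207 CPM of Ifnar1 and 476 and 458 CPM of Ifnar2, in 22 and 25 cells. Each stood above the next group beyond counting error in both libraries. Elsewhere Ifnar1 varied little, from 34.6 CPM in cluster 8 to 97.4 CPM in Glutoborin regulatory T cells. Ifnar2 was higher in monocytes, at 166 and 194 CPM, than in lymphocytes. B cells had 33.9 and 36.9 CPM, CD4 T cells 50.9 and 48.9, gamma-delta T cells 93.0 and 81.4, and NK cells 51.8 and 89.2. Red pulp macrophages, at 107 and 158 CPM, were close to gamma-delta T cells in Vehicle. Ifnar1 molecules per Ifnar2 molecule were 1.36 and 1.47 in B cells and 0.29 and 0.24 in monocytes.

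NK cells changed this balance between the libraries. Their Ifnar2 stood at 51.8 CPM (128 UMIs) in the Vehicle cells and at 89.2 CPM (251 UMIs) in the treated ones, and the log2 ratio was 0.78 (0.47 to 1.10). Their Ifnar1 went from 59.9 to 43.3 CPM, a ratio of -0.47 (-0.82 to -0.11). The number of Ifnar1 molecules per Ifnar2 molecule came to 1.16 (0.91 to 1.48) for Vehicle and 0.49 (0.39 to 0.61) for Glutoborin. The Ifnar2 ratio was 0.53 with doublets kept and also 0.53 as a mean over cells, both short of 1.5-fold. Igkc, an immunoglobulin chain that NK cells lack, was at 630 and 277 CPM in the NK cells, and summed T cell markers at 797 and 959 CPM. Their part in these ratios was not tested. Ifnar1 was lower in CD8 T cells at -0.40 (-0.64 to -0.16), and higher in B cells at 0.24 (0.11 to 0.37) and in regulatory T cells at 0.57 (0.05 to 1.10), where only 53 and 79 UMIs were counted.

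The ligands of this receptor were almost not captured. Of 20 type I and type III interferon genes in the feature lists none was measured. Ifnb1 had 1 UMI, in a Vehicle plasmacytoid dendritic cell, Ifna2 had 1 in Vehicle, Ifnz had 2 and 1, and all others had none in the kept cells.

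Jak1, the kinase both receptors share, was the most abundant of the 8 genes in every lymphocyte group. NK cells stood first at 707 CPM (674 to 741) and 811 CPM (778 to 845), above gamma-delta T cells at 451 and 510 CPM. CD8 T cells had 441 and 419 CPM, CD4 T cells 390 and 377, B cells 224 and 246, and monocytes 207 and 172. Jak2 was highest in the mixed dendritic cells, at 181 CPM (158 to 207) and 155 CPM (135 to 178), above the next group in both libraries. Cluster T12 was the highest lymphocyte group for Jak2, at 83.9 and 52.9 CPM, whereas NK cells had 23.9 and 24.2. Tyk2 was the scarcest kinase in most groups, with its highest levels in Vehicle monocytes (61.4 CPM) and NK cells (56.2 and 56.5 CPM). Neighbours at the top of the Tyk2 order did not differ beyond counting error. Vehicle neutrophils had no Tyk2 UMI in 22 cells, which allows up to 13.6% of cells with one, and Glutoborin neutrophils had 3 UMIs in 62 cells.

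**Figure D3:**
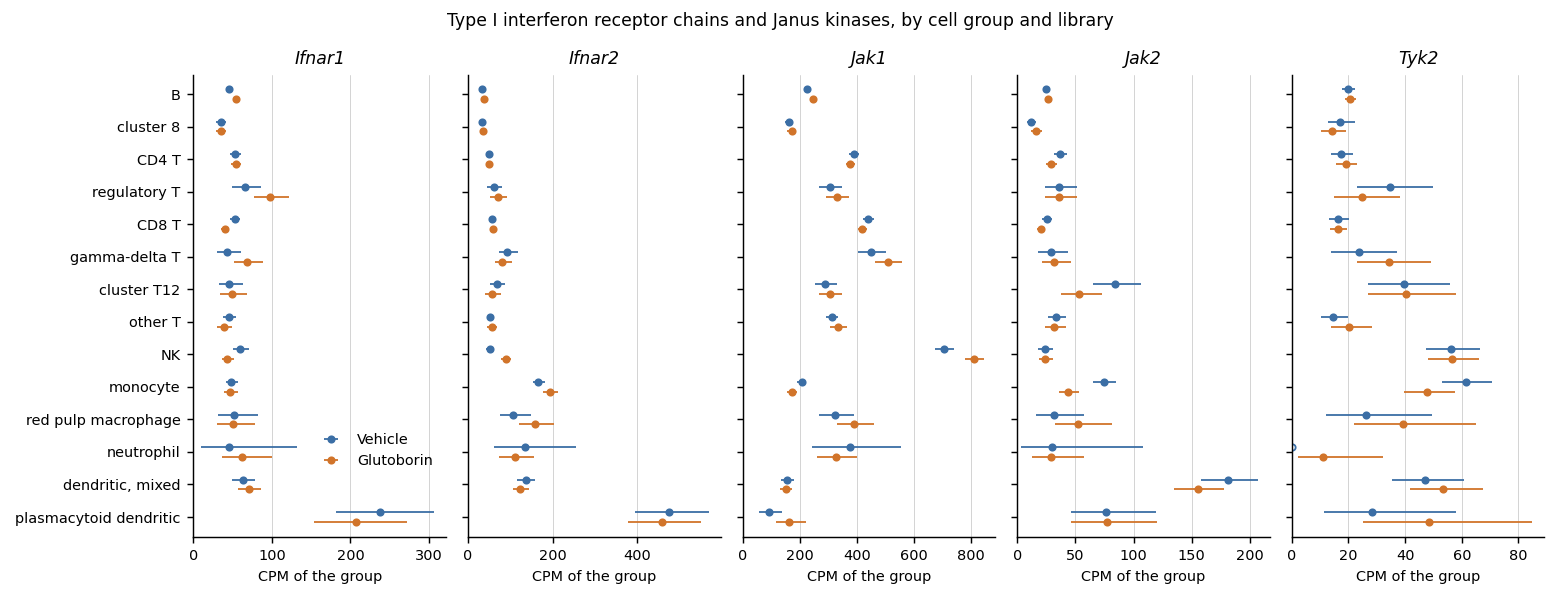
CPM (linear axes from 0, each with its own range) of Ifnar1, Ifnar2, Jak1, Jak2 and Tyk2 in the same 14 groups, Vehicle in blue and Glutoborin in orange, with exact 95% counting intervals. Plasmacytoid dendritic cells lead both receptor chains, NK cells lead Jak1 (707 and 811 CPM) and mixed dendritic cells lead Jak2.

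Jak2 in monocytes differed most of the kinases between the libraries, with 243 UMIs (74.6 CPM) against 104 UMIs (43.7 CPM) after Glutoborin, or -0.77 as a log2 ratio (-1.12 to -0.44). Jak1 (-0.26, -0.44 to -0.08) and Tyk2 (-0.36, -0.70 to -0.02) were lower there too, by less than 1.5-fold. Markers of other lineages differed too in the monocyte cluster, which was 4.57% of kept cells in Vehicle and 2.33% in Glutoborin. Summed T cell markers were 399 and 185 CPM, with 8 of 8 at least 1.5-fold lower. Neutrophil markers were 1004 and 645 CPM and red pulp macrophage markers 186 and 112. NK markers went the other way, at 81.0 and 125 CPM, with Gzma at 15.7 and 65.5 CPM. The monocytes' own markers summed to 29460 and 31747 CPM, of which Lyz2 made 17445 and 21172. Of these 12 markers, Ly6c2 (-0.71) was at least 1.5-fold lower, and Fn1 (1.38) and Vcan (0.65) at least 1.5-fold higher. That is 1 lower and 2 higher, beside 6.13% and 3.74% of all genes measured there. The part of these marker differences in the kinase values was not tested. In cluster T12 Jak2 was also lower, at -0.67 (-1.28 to -0.07) on 68 and 38 UMIs. In NK cells Jak1 was higher at 0.20 (0.11 to 0.29), and Jak2 (0.02) and Tyk2 (0.01) had intervals that included no change. Jak1 was higher in B cells at 0.14 (0.08 to 0.20).

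**Figure D4:**
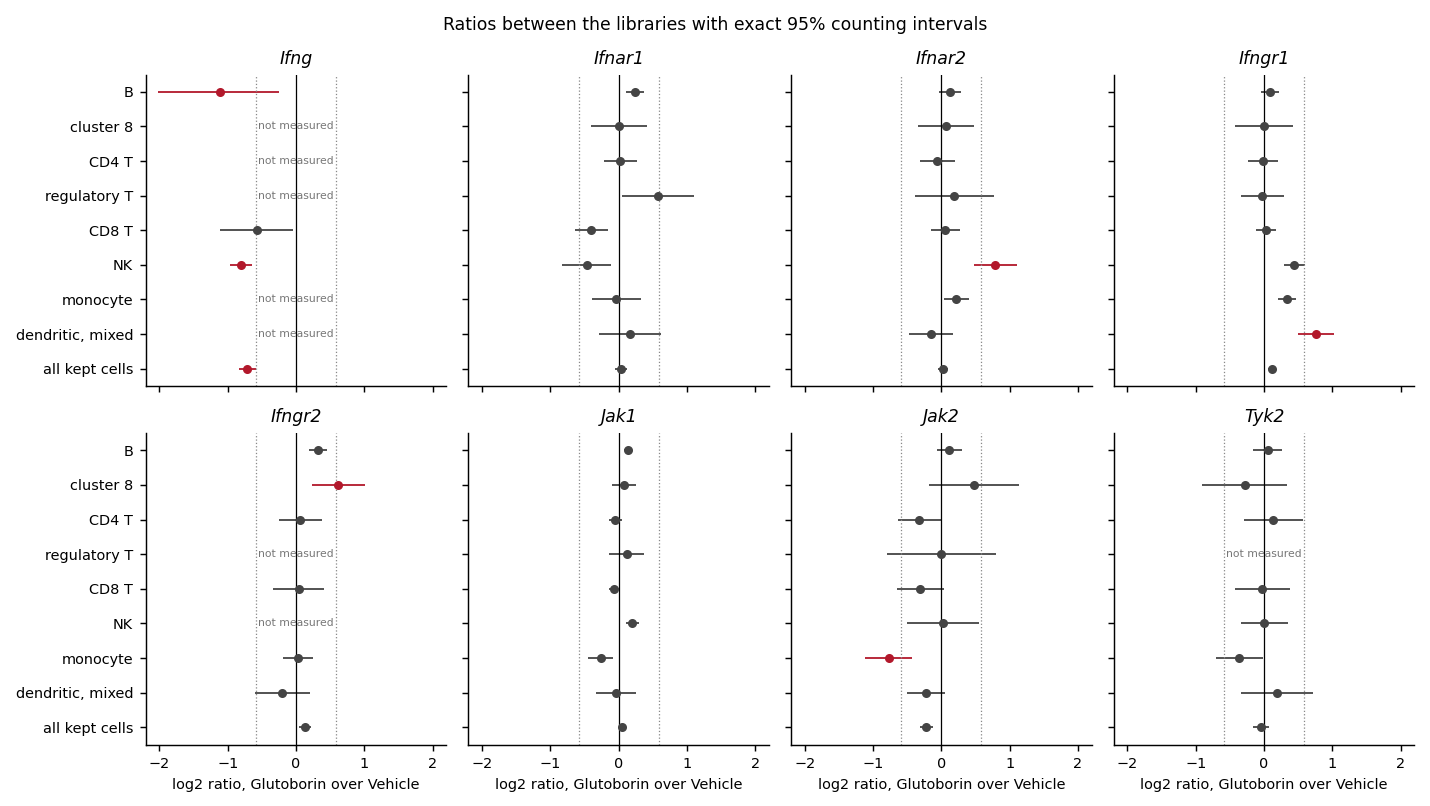
Log2 ratio of Glutoborin over Vehicle for each gene in 8 cell groups and in all kept cells, with exact 95% counting intervals. Dotted lines mark 1.5-fold, red points lie past it, and groups with under 50 UMIs are marked as not measured. The 6 red points within groups are Ifng in B and NK cells, Jak2 in monocytes, Ifnar2 in NK cells, Ifngr1 in mixed dendritic cells and Ifngr2 in cluster 8.

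Counted over the 8 groups with at least 100 cells in each library, 56 member values were measured, of which 3 were at least 1.5-fold lower and 3 at least 1.5-fold higher in Glutoborin. The share of all measured genes past the same fold gives the background in each group. In B cells 1 of 8 members was lower and 0 higher, beside 3.38% and 2.38% of all genes. In NK cells 1 of 7 was lower and 1 higher, beside 5.47% and 6.89%. In monocytes 1 of 7 was lower and 0 higher, beside 6.13% and 3.74%, and in mixed dendritic cells 0 of 7 were lower and 1 higher, beside 7.13% and 4.91%. In cluster 8, 0 of 7 were lower and 1 higher, beside 3.94% and 3.24%. No member was past the fold in CD4 T cells (7 measured, beside 2.67% lower and 2.28% higher), CD8 T cells (8 measured, 2.71% and 1.83%) or regulatory T cells (5 measured, 6.32% and 2.44%). With so few members, 1 call in a group is little above these shares. The median log2 ratio of the members was 0.12 in B cells, 0.02 in NK cells and -0.04 in monocytes, beside 0.02, 0.02 and -0.01 over all genes.

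Downstream of these receptors, Stat2, a transducer of the type I receptor, was at least 1.5-fold lower in each of the 8 groups, from -0.75 in CD4 T cells to -1.30 in cluster 8. It was at -1.18 in B cells and -0.80 in NK cells. Irf1, a transcription factor that interferon gamma induces, was at -0.60 in B cells, -0.65 in cluster 8 and -0.63 in mixed dendritic cells. In the other groups it was short of the fold, at -0.46 in regulatory T cells, -0.40 in CD4 T cells, -0.28 in monocytes, -0.18 in CD8 T cells and -0.11 (-0.34 to 0.11) in NK cells, where the interval included no change.

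Among 15 negative regulators, 4 of 15 measured were lower in B cells, beside 3.38% of all genes measured there, and 4 of 14 in NK cells, beside 5.47%. None was at least 1.5-fold higher in any group. Socs1, an inhibitor of Janus kinases, was at -1.44 in B cells, -1.35 in mixed dendritic cells and -0.68 in NK cells. Usp18, which holds back signalling at IFNAR2, was at -2.23 in B cells, -1.56 in NK cells and -1.30 in monocytes. Cish was at -1.20 in B cells and -1.15 in NK cells, Socs2 at -1.13 in B cells, and Socs3 at -0.64 in NK cells. The phosphatases Ptpn6 (0.06) and Ptpn1 (-0.13) were close to even in B cells. With cells of up to 25% mitochondrial UMIs kept, 2 of the list were lower in B cells.

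Of 26 genes known to be induced by interferon gamma, 20 of 25 measured were lower in B cells (beside 3.38% of all genes), 17 of 24 in cluster 8 (3.94%) and 16 of 24 in mixed dendritic cells (7.13%). The counts were 10 of 25 in monocytes (6.13%), 9 of 24 in CD4 T cells (2.67%) and 8 of 21 in NK cells (5.47%). CD8 T cells had 5 of 24 (2.71%) and regulatory T cells 5 of 23 (6.32%). Many of these genes also answer to type I interferon, and Socs1 and Irf1 are also described above. B cell cluster 2, with 798 Vehicle and 216 Glutoborin cells, had Socs1 and Irgm1 among its leading genes. Its part in the B cell values was not tested. The list's median was -1.11 in B cells, -0.67 in mixed dendritic cells and -0.45 in monocytes. The chemokine Cxcl9 was at -3.10 in monocytes (1081 and 92 UMIs) and -1.42 in mixed dendritic cells, and the GTPase Gbp2 at -1.62 in B cells. Ciita, the master regulator of MHC class II genes, was the 1 member higher in any group, at 0.73 in monocytes. NK cells, which had almost no Ifngr2 molecules, had Irgm1 at -0.89 and Gbp6 at -1.25.

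Of the other receptor chains and kinases on the fixed list, Il12rb1 was lower in B cells (-1.23) and cluster 8 (-1.21), Il10ra in cluster 8 (-0.72), Jak3 in NK cells (-0.60) and Il2rg in monocytes (-0.65). Il10rb, the gene between Ifnar2 and Ifnar1 on chromosome 16, was higher in mixed dendritic cells (0.72, 71 and 132 UMIs).

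Genes that drive or accompany Ifng production were mixed in NK cells. Of the transcription regulators, Nfatc1 (0.60, 0.33 to 0.87) and Nfatc2 (0.90, 0.29 to 1.53) were higher. Bcl6, on 18 and 33 UMIs, was at 0.69 with an interval (-0.18 to 1.60) that included no change. Tbx21 (-0.30) and Eomes (0.33), which encode T-bet and its relative, were short of the fold. Of 10 receptors for inducing signals, Tnfrsf9 (-0.66), a costimulatory receptor, was the 1 past the fold, while Il2rb (-0.07), Il2rg (-0.15) and Il18rap (-0.18) were not. That is 1 lower and 0 higher of the 10, beside 5.47% and 6.89% of all genes. Of 15 effector partners measured, Csf2 (-1.15) and Gzmb (-0.73) were lower, and Nr4a1 (0.80) and Cxcr3 (0.85) were higher. Nr4a3 at 0.66 (-0.08 to 1.43) and Cxcr6 at 0.74 (-0.08 to 1.60) were past the fold by point value, but their intervals included no change. By point value that is 2 lower and 4 higher of the 15, beside 5.47% and 6.89% of all genes measured in NK cells. Ccl5 (0.55), Ccl4 (0.33) and Gzma (-0.06) were not past it.

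Of the genes listed as inducers of Ifng, Il1b (-1.18) and Cd40 (-1.05) were lower in monocytes, where 6 of 11 were measured. That is 2 lower and 0 higher of the 6, beside 6.13% and 3.74% of all genes measured there. Over all kept cells Il1b was instead higher (0.52, 0.39 to 0.64, on 836 and 1420 UMIs), short of 1.5-fold. Of the 9 inducers measured over all kept cells, 1 was lower and 0 higher, beside 3.07% and 3.42% of all genes. In B cells 1 of 6 was lower (Il15 at -0.66) and 1 higher (Il2 at 1.19), beside 3.38% and 2.38%. Il27 was lower over all kept cells (-1.15, 144 and 77 UMIs), most of it from monocytes, which were 4.57% and 2.33% of kept cells. Within monocytes, on 114 and 60 UMIs, its ratio was -0.47 (-0.95 to -0.01), short of 1.5-fold. Il12b, chosen after its values were seen since it fell short of 50 UMIs, had 41 UMIs in the mixed dendritic cells of Vehicle and 4 in those of Glutoborin. However, 37 of the 41 came from 1 cell, and 3 of these dendritic cells in each library held any. The other subunit of interleukin 12, Il12a, was found mostly in B cells, with 384 of 506 and 673 of 812 UMIs.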

How the data were processed

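The deposited files give raw UMI counts, without normalization. Per the file headers they came from Cell Ranger 6.1.2, but the submitters' processing notes name version 6.0.1, with Seurat 4.3.0 and mm10. The annotation release and counting settings were not stated. Cells with at least 300 genes, 500 UMIs and under 10% mitochondrial UMIs were kept, and Scrublet doublets (196 Vehicle, 352 Glutoborin) were left out in each library alone. Counts were scaled to 10000 per cell and clustered together in scanpy 1.11.5 with 2000 variable genes, 30 principal components, 15 neighbours and Leiden resolution 1.5, without batch correction. T cells were clustered again. A cluster needed 3 detected markers for a name, and naming limits were set after clusters were seen. UMIs were summed per group and library. Levels are given for groups of at least 20 cells and ratios for at least 100 in each library, with exact Poisson, Clopper-Pearson and Poisson-ratio intervals from scipy 1.17.1. A gene is measured with at least 50 UMIs over both libraries of a group. The limit beside a share of 0 is 3 counts. Intervals and limits cover counting error only. The ratio script was tested on simulated data. Of the feature identifiers, 99.6% matched GENCODE vM21, and promoters came from RefSeq. The members, lists, markers and rules were chosen with earlier results of these data known. Named genes are all 8 members, list members past 1.5-fold or otherwise the most abundant, the 5 (Ifng) or 3 genes most alike, and the 5 leading genes of cells with Ifng, which needed 30 UMIs. Not every list member past the fold is printed. Results for 1 listed gene are not reported here.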

Additional observations from a re-analysis of the deposited data

Results flagged for a closer look

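In 3 genes the log2 ratio of Glutoborin over Vehicle went opposite ways in different cell groups with both intervals clear of no change, taking on each side the group with the most UMIs. For Ifng, cluster T12 (0.43) and NK cells (-0.81) differed by 1.24. For Ifnar1, B cells (0.24) and CD8 T cells (-0.40) differed by 0.64. For Jak1, B cells (0.14) and monocytes (-0.26) differed by 0.40. These differences were not tested, since each group was 1 library.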

How the results depend on the processing

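No paired analysis was possible because each group was 1 library and no result came from a test. The counts of members past 1.5-fold stayed within 3 to 4 lower and 2 to 4 higher under every alternative run. As a mean over cells of each cell's CPM, Ifng over all kept cells was at -0.54, which ends its call. The NK share of Ifng UMIs in Vehicle was 66.2% with cells of up to 25% mitochondrial UMIs kept and 57.0% without the 10 cells richest in Ifng, and in Glutoborin it was 48.2% with doublets kept. No member's ratio changed direction where its interval excluded no change. Calls that changed side, beside those given above, were Ifnar1 in regulatory T cells (0.63 scaled by the median ratio of all genes, 0.68 with at least 2000 UMIs per cell), Jak2 in cluster 8 (0.61 at Leiden resolution 0.8) and Ifng in CD8 T cells (-0.73 as a mean over cells). The cause was not tested. Thinning to 1000 UMIs gave NK shares of 24.8% and 17.0%. Leaving out cluster T14 and joining cluster 8 to the B cells, both chosen after seeing the data, moved no value beyond its interval. Other runs did: with cells of up to 25% mitochondrial UMIs kept, 17 single CPM values moved and 95 did not. As a mean over cells, 13 moved and 99 did not. The Jak1 ratio in NK cells also moved, from 0.20 to 0.39 with that mitochondrial limit and to 0.29 with doublets kept. Depth limits the sparse members most: Ifngr2 in NK cells rests on 3 and 1 UMIs, and 1 library per group leaves the spread between mice unmeasured.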
